A study of Mus musculus with 42 samples.

Results

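The 40 genes described here are imprinted genes of the mouse that lie outside the Dlk1-Dio3 locus. They were chosen by name, and all 40 were found among the 48321 gene names of the count tables. By textbook annotation 19 were classed as paternally expressed, 17 as maternally expressed and 4 as dependent on the isoform or tissue. The first 2 classes name the allele used where a gene is imprinted. They do not say that it is imprinted in every tissue or in these cells. They were grouped by locus: 9 genes at Kcnq1, 5 at Peg10-Sgce, 5 at Snrpn, 3 at Peg3, 2 each at H19-Igf2, Gnas and Igf2r, and 12 single or paired genes. RNA was sequenced from mouse embryonic fibroblasts (MEF), from cells sorted while they were being reprogrammed, and from induced pluripotent stem cells (iPSC), in 42 libraries of 14 groups with 3 per group. All libraries are labelled male.

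The naivex2 lines are of strain B6; 129S4-Tg(Tet1-mCherry)B37Koh crossed to B6;CBA-Tg(Pou5f1-EGFP)2Mnn/J, with the genotype Tg(mCherry)/wt; Tg(GFP)/wt. They gave MEF at day 0, mCherry+/GFP- cells at day 10, mCherry+/GFP- and mCherry+/GFP+ cells at days 12 and 14, and iPSC. The totalx2 lines are of strain B6-Tet1tm1.1Koh crossed to B6;129S4-Pou5f1tm2Jae/J, with the same genotype label, and gave mCherry+/GFP- cells at day 8 and both fractions at days 10 and 12. Wild-type (wt/wt;GFP/wt) and Tet1 knockout (mut/mut;GFP/wt) iPSC clones come from Tet1tm1Koh x Tg(Pou5f1-EGFP)2Mnn. The strain names tie mCherry to Tet1 and GFP to Pou5f1, the gene of the pluripotency factor OCT4, and the fractions of a day share mCherry and differ in GFP. The 3 replicates are 3 lines in naivex2 and in totalx2, and 3 clones in the wild-type and knockout iPSC; each naivex2 iPSC sample is 1 clone of its line. The iPSC had 6 to 7 passages on feeder cells and were depleted of feeders before harvest. One of the totalx2 day 12 GFP- libraries, replicate 2, lacks the mCherry mark in its title, and its gate was read from its source name.

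An imprinted gene is expressed only or mainly from the maternal or the paternal copy, in some cases only in certain tissues. In most cases a control region was methylated in one of the parents' germ lines and that mark is kept through development. Imprinted genes sit in clusters in which one control region sets several genes at once, often through a long noncoding RNA such as H19, Airn or Kcnq1ot1. Many act on fetal and placental growth, with IGF2 promoting growth and CDKN1C, PHLDA2 and GRB10 limiting it. ZFP57 binds the methylated letters TGCCGC at control regions and recruits TRIM28 to protect the mark, while TET1 oxidises methylcytosine and takes part in erasing imprints in the germ line. The counts add both alleles together, so allele use was not measured.

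Promoter windows of the genes that the results below turn on are shown with their surroundings. Each is 300 bases long, 250 before and 50 after a transcription start, 5′ to 3′ on the gene's strand, from RefSeq on GRCm38.p6. A window was found for 32 of the 40 genes, 51 windows in all. Capitals mark TGCCGC on either strand (TGCCGC or GCGGCA), except in the Peg3 window, where they mark the bases it shares with the window of Usp29. Grb10 is shown because it had the largest rise in the Tet1 knockout, Zdbf2 because it had the largest rise of the members in GFP+ naivex2 cells, and Peg3 because it shares the stretch with Usp29.
Grb10 window 1 (chr11:12037371-12037670, - strand): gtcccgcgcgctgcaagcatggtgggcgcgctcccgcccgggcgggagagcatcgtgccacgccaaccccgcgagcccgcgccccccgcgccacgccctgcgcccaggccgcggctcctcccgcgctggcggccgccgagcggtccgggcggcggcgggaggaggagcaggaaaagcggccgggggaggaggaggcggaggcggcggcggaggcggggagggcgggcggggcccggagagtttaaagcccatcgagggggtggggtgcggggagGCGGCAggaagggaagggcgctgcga
Grb10 window 2 (chr11:12027922-12028221, - strand): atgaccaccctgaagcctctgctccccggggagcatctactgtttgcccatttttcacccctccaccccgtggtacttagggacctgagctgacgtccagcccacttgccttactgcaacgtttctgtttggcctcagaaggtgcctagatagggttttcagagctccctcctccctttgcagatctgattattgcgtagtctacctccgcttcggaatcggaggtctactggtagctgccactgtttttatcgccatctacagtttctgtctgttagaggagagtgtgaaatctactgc
Zdbf2 window 1 (chr1:63200108-63200407, + strand): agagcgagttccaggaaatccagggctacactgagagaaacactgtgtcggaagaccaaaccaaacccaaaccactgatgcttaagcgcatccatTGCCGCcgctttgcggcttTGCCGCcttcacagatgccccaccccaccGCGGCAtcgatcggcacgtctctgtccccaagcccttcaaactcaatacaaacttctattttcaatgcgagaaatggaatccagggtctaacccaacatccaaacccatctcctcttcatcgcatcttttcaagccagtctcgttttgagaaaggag
Zdbf2 window 2 (chr1:63273019-63273318, + strand): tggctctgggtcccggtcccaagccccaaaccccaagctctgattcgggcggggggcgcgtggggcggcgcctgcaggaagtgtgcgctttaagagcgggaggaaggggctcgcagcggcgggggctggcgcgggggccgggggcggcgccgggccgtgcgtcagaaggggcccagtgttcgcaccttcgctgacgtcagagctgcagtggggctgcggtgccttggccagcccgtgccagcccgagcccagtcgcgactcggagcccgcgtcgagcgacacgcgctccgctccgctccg
Peg3 window (chr7:6730370-6730669, - strand): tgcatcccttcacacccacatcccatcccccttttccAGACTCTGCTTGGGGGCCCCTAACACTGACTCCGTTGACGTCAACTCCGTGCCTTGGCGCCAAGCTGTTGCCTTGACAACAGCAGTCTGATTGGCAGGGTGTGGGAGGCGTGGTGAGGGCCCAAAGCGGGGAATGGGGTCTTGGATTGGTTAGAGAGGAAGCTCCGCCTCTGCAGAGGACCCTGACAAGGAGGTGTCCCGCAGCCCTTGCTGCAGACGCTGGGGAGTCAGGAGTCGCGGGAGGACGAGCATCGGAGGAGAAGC

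The first Grb10 window holds 45 CpG and 1 match to the motif, the second 9 CpG and no match. At Zdbf2 the far upstream window holds 3 matches and 15 CpG, and the window at the counted gene's own start holds 38 CpG and no match. The deposited Zdbf2 gene runs from chr1:63273265 to 63314576, so reads between the upstream start and that span were not counted as Zdbf2. The windows of Peg3 and Usp29, which are transcribed away from each other, share 263 bases and have no match. TGCCGC was found in 12 of the 51 windows (23.53%) against 11.61% of all 32851 windows, and the median window holds 15 CpG against 7 overall. The motif itself holds a CpG, and the shares were not adjusted for CpG content. Windows of a gene can overlap: those of Mest that start at chr6:30737800 and 30737803 each count 2 matches. A match describes these letters and is not a binding site.

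Total counts per library ran from 6540256 to 20783265, and the 40 genes held 0.276 to 1.61% of them. Mitochondrially encoded genes took 12.2% of counts in wild-type iPSC replicate 1, 8.99% in naivex2 day 10 replicate 1, and 1.75 to 4.02% in the others. The 2 tables (naivex2 in one, totalx2 with wild-type and knockout iPSC in the other) are separate sequencing batches, and comparisons were made within a table. Levels are depth-scaled counts (CPM, with TMM-scaled totals), and differences are log2 differences ± SE from edgeR's quasi-likelihood test, called at a Benjamini-Hochberg adjusted p of 0.05 over all genes tested. Fibroblast markers (12 of 12 with counts in every group) summed to 22426 to 23409 CPM in MEF, where 10 pluripotency markers summed to 41.8 to 46.4 CPM with Dppa4 at 0. The pluripotency sum was 4392 to 4546 CPM in naivex2 iPSC, 4313 to 5024 CPM in wild-type and 4728 to 4884 CPM in knockout iPSC. Tet1 checks the knockout labels: the knockout clones held 54.3, 58.6 and 57.3 CPM of it and the wild-type 1303, 823 and 874 CPM (-4.14 ± 0.18 (SE), adjusted p = 2.52e-11).

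Of the 40 genes, 37 passed the filter on low counts in the naivex2 table and 35 in the other. Kcnq1 and Calcr stayed at 0 to 13 and 0 to 10 counts per library and were tested in neither, and Asb4 and Magel2 were tested in naivex2 alone. Snrpn, the small nuclear ribonucleoprotein gene of the Prader-Willi region, had 0 to 11 counts. The file headers name no option for reads that fall in more than 1 gene of a strand, which featureCounts then leaves out, and 14.3% of the Snrpn span is shared with Snurf, which had 0 counts in all 42 libraries, and with Gm38393. For Commd1, 99.7% of the span is shared with Gm28048, and 3 to 43 counts were left. Snrpn and Commd1 are not described further for that reason. In bulk samples fewer cells of a type and less RNA per cell cannot be told apart.

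Most of the genes fell between MEF and the first sorted naivex2 cells. At day 10, 25 of 37 were lower and 9 higher than in MEF, against a background of 76.4% of all genes called (38.8% higher and 37.6% lower), and their median log2 difference was -0.95 against 0.06 for all genes. The falls spanned from -6.81 for Igf2, the fetal growth factor, to -0.47 for Ube3a, a ubiquitin ligase gene. Igf2 went from 6044, 5703 and 5728 CPM in MEF to 64.1, 57.1 and 35.1 CPM, and H19, the noncoding RNA beside it, from 6185, 5990.5 and 5795 to 213, 161 and 115 CPM. Ndn, a growth suppressor of the Prader-Willi region, went from 65.7, 78.05 and 75.9 to 2.104, 2.24 and 4.27 CPM. None of these groups overlap. The 9 that rose were Phlda2, Ascl2, Ppp1r9a, Slc22a18, Copg2, Usp29, Peg3, Nespas and Zrsr1. Phlda2, which limits placental growth, rose from 0.821, 0.505 and 0.946 to 14.4, 13.3 and 13.7 CPM (4.13 ± 0.30 (SE), adjusted p = 5.89e-11). Ascl2, a trophoblast transcription factor gene, rose from 0.293, 0.421 and 0.236 to 2.95, 5.41 and 3.28 CPM (3.63 ± 0.38 (SE), adjusted p = 1.71e-08). The fibroblast marker sum fell over the same step to 897 to 1495 CPM and the sum of 14 trophectoderm and placenta markers rose from 122 to 127 to 252 to 267 CPM, with Prl3d1 and Tpbpa at 0 at day 10. Their part in these changes was not tested. With library totals alone in place of TMM scaling the all-gene median of this comparison was 0.34 rather than 0.06, and Ube3a was no longer called (adjusted p = 0.15).

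**Figure D1:**
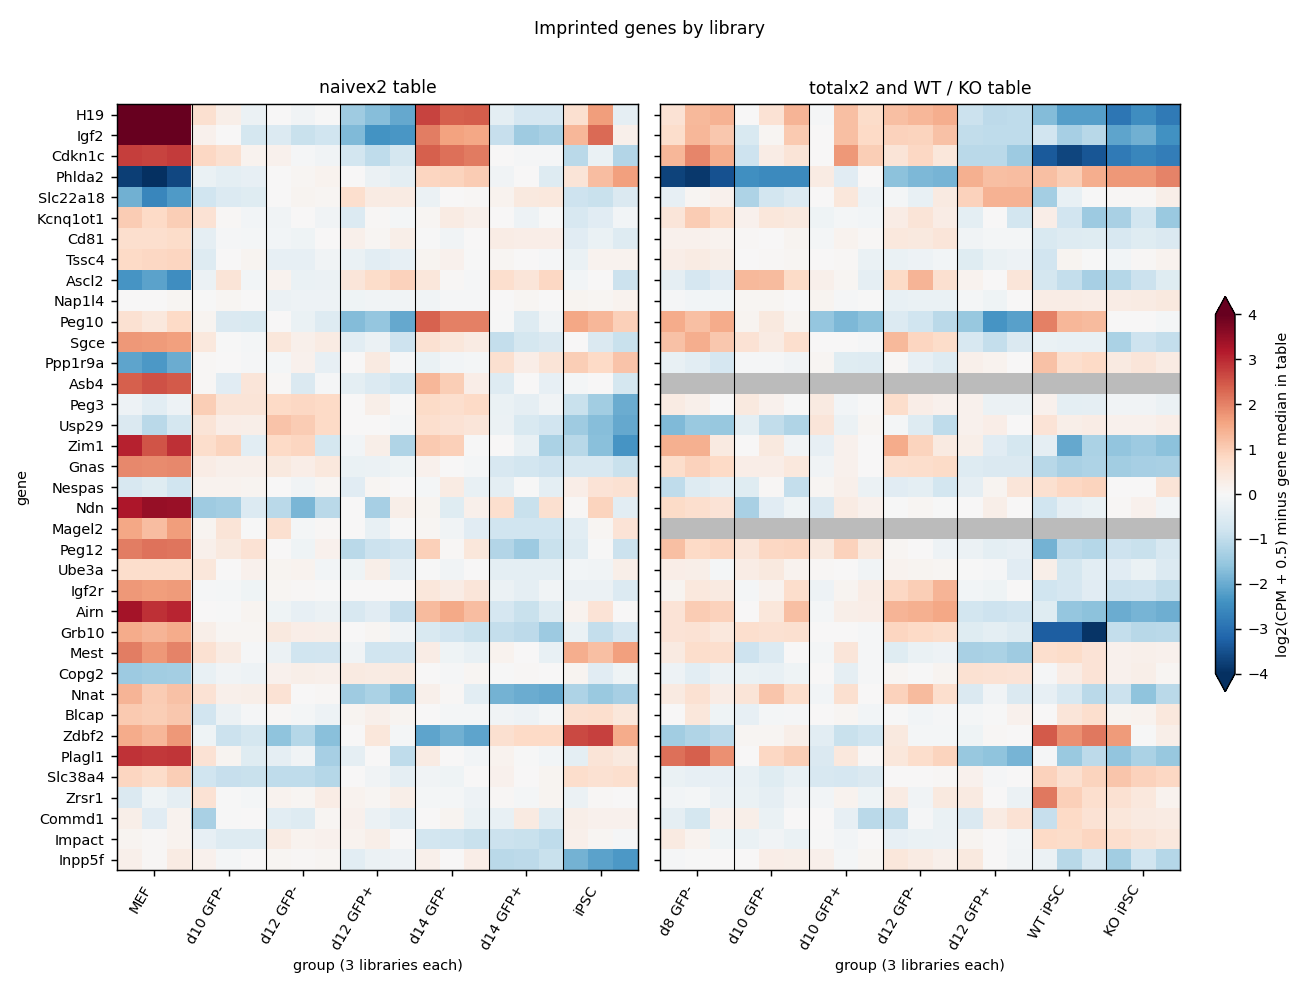
Each row is 1 of the 37 tested imprinted genes and each column 1 library; colour is log2(CPM + 0.5) minus the gene's median in that table, and grey rows were not tested there. The 3 MEF libraries at the left stand apart in most rows (H19, Igf2 and Ndn high, Phlda2 and Ascl2 low), and Grb10 is lowest in the wild-type iPSC.

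Within sorted naivex2 cells, more of the genes were lower in the GFP+ fraction than higher. At day 12, 11 of 37 were lower and 4 higher, against a background of 16.6% of all genes called (9.93% higher and 6.69% lower). At day 14, 17 were lower and 3 higher, against a background of 31.3% of all genes called (14.4% higher and 16.9% lower). With only the day 14 groups fitted 16 were lower and 7 higher. In the totalx2 lines at day 10, 6 of 35 were lower and 5 higher, against a background of 22.4% of all genes called (13% higher and 9.36% lower). With lines as a block 10 were lower and 4 higher there, and with only those groups fitted 9 were lower and 2 higher. The direction depended on the libraries: without GFP- replicate 3, 4 were lower and 7 higher, and without GFP- replicate 1, 7 were lower and 2 higher. At day 12, 17 were lower and 7 higher, against a background of 61.6% of all genes called (31.2% higher and 30.4% lower), so the members' share, 24 of 35, lies near the background there. With library totals alone 18 were lower and 4 higher. Peg10, Sgce and Gnas were lower in GFP+ cells in all 4 comparisons, none of the 40 was higher in all 4, and 7 were called in both directions. The share of all genes in each of these classes was not counted, so whether the members differ from other genes in this is not known.

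Marker sums differed between the fractions in some comparisons and overlapped in others. The fibroblast sum in naivex2 was 1016 to 1551 CPM in GFP- and 613 to 1183 CPM in GFP+ cells at day 12, overlapping, with 1 of 12 markers called (lower). At day 14 it was 3415 to 5575 and 1729.8 to 2837 CPM. In totalx2 it was 3367 to 9279 and 4696 to 12355 CPM at day 10, overlapping, with 1 of 12 markers higher and 1 lower. At day 12 it was 10496 to 13818 and 2431 to 2881 CPM. The trophectoderm and placenta sum in naivex2 was 266 to 283 CPM in GFP- (13 of 14 markers with counts, Prl3d1 at 0) and 129.7 to 143 CPM in GFP+ cells (10 of 14, with Cdx2, Hand1, Prl3d1 and Tpbpa at 0) at day 12. At day 14 it was 476 to 515 CPM in GFP- (Prl3d1 at 0) and 131 to 154 CPM in GFP+ cells (14 of 14 with counts). In totalx2 the sum ran the other way, at 103 to 122 and 169 to 188 CPM at day 10 (14 and 11 of 14 with counts, Cdx2, Prl3d1 and Tpbpa at 0 in GFP+) and 114 to 148 and 185 to 275 CPM at day 12 (Prl3d1 at 0 in both). Its single markers were mixed there: of 11 tested, 3 were higher and 3 lower at day 10, and 3 higher and 4 lower at day 12. In naivex2, 7 of 11 were lower at day 12 and 10 of 11 at day 14, and none was higher. Of all genes, 16.6 and 31.3% were called in naivex2 at days 12 and 14, and 22.4 and 61.6% in totalx2 at days 10 and 12. The part of these markers in the differences between fractions was not tested.

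**Figure D2:**
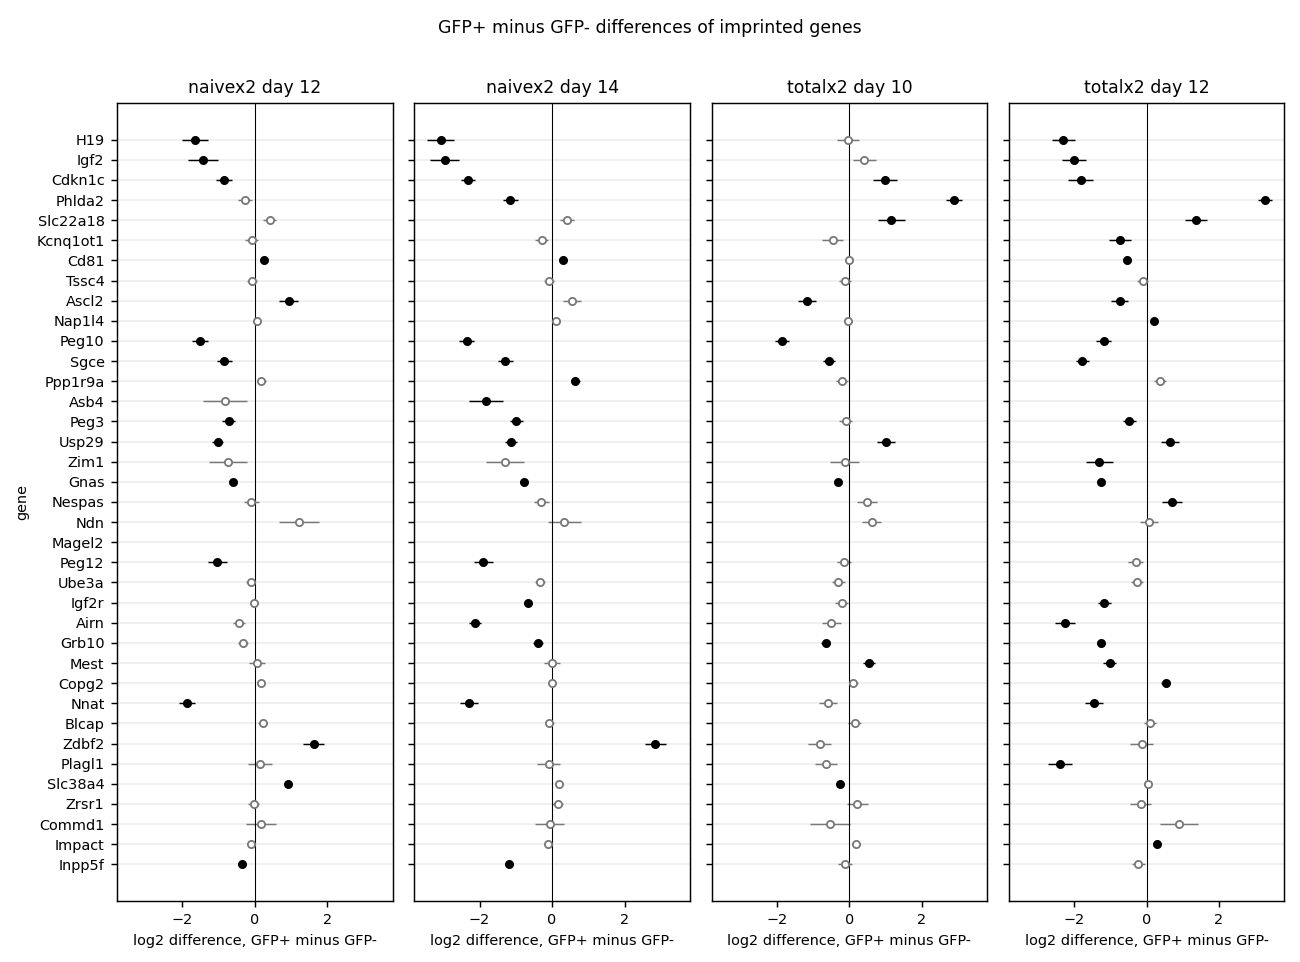
Points are log2 differences, GFP+ minus GFP-, of the tested imprinted genes in 4 comparisons, with bars of 1 SE; filled points have an adjusted p under 0.05. Magel2, at 0 counts in all day 14 GFP+ libraries, is not drawn. Peg10 lies left of 0 in every panel, and Zdbf2 lies right of 0 in the naivex2 panels alone.

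The H19-Igf2 pair, where a shared enhancer serves H19 on the maternal and Igf2 on the paternal copy, fell together in naivex2 GFP+ cells. At day 12 H19 held 136, 124 and 136 CPM in GFP- and 50.8, 41.7 and 32.9 CPM in GFP+ cells (-1.66 ± 0.36 (SE), adjusted p = 0.00473). At day 14 it held 884, 718 and 726 and 105, 84.8 and 85.5 CPM (-3.08 ± 0.37 (SE), adjusted p = 1.44e-05). Both pairs of groups were apart. Igf2 went from 38.9, 30.9 and 32.5 to 16.5, 10.6 and 10.95 CPM at day 12 (-1.42 ± 0.41 (SE), adjusted p = 0.0267) and from 238, 174 and 166 to 29.9, 21.2 and 23.1 CPM at day 14 (-2.97 ± 0.40 (SE), adjusted p = 4.06e-05). The day 12 call of Igf2 was lost without GFP- replicate 1 or 3 (adjusted p = 0.076 and 0.055) and without GFP+ replicate 2 or 3 (0.09 and 0.0841), while the groups were apart with all libraries in.

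In totalx2 the pair differed between fractions at day 12 and, with all libraries in, not detectably at day 10. At day 10 H19 held 712, 1051 and 1841 CPM in GFP- and 686, 1626 and 1193 CPM in GFP+ cells (adjusted p = 0.952), and the groups overlap. At day 12 it held 1655, 1777 and 1965 and 389, 347 and 352 CPM (-2.31 ± 0.32 (SE), adjusted p = 6.28e-06). Igf2 held 457, 448 and 548 and 123, 119 and 119.6 CPM at day 12 (-2.01 ± 0.33 (SE), adjusted p = 4.47e-05). At day 10 Igf2 was not called (edgeR adjusted p = 0.4145), but without GFP- replicate 3 it was called higher in GFP+ cells (0.92, adjusted p = 0.0235). The change of the GFP difference from day 10 to day 12 was itself called, at -2.27 ± 0.43 (SE), adjusted p = 0.0012 for H19 and -2.41 ± 0.45 (SE), adjusted p = 0.00114 for Igf2. Within the totalx2 day 10 groups, the line order of H19 was that of the fibroblast sum, which was 3367, 6413 and 9279 CPM in GFP- and 4696, 12355 and 8799 CPM in GFP+ replicates 1, 2 and 3. This is an order of only 3 lines per group, and a link between the 2 was not tested.

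In naivex2 iPSC the pair was higher than in day 14 GFP+ cells, far lower than in MEF (median log2 difference -4.88), and uneven between lines. H19 held 211, 435 and 107 CPM and Igf2 143, 275 and 65.2 CPM, with the same line highest and the same line lowest. Against day 14 GFP+ cells the differences were 1.45 ± 0.35 (SE), adjusted p = 0.00332 for H19 and 2.71 ± 0.40 (SE), adjusted p = 4.65e-05 for Igf2. Without iPSC replicate 2 they were 0.79 and 2.07, both still called. With only those groups fitted H19 was not called (adjusted p = 0.0642). The fibroblast sum in these iPSC was 2131, 3643 and 1368 CPM in replicates 1, 2 and 3, and its part was not tested.

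The number of H19 counts per Igf2 count, which is not corrected for gene length and serves only to set libraries side by side, was 1.03 ± 0.0198 (SD, n = 3) in MEF. It was 3.14 ± 0.277 at day 10 and from 3.34 ± 0.523 to 4.08 ± 0.3296 in the sorted groups of days 12 and 14. In naivex2 iPSC it was 1.57 ± 0.0787 although their levels of both genes differed several times between lines. It was 1.503 ± 0.113 in wild-type and 1.97 ± 0.259 in knockout iPSC, whose libraries do not overlap (1.503, 1.62 and 1.39 against 1.72, 1.96 and 2.24).

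**Figure D3:**
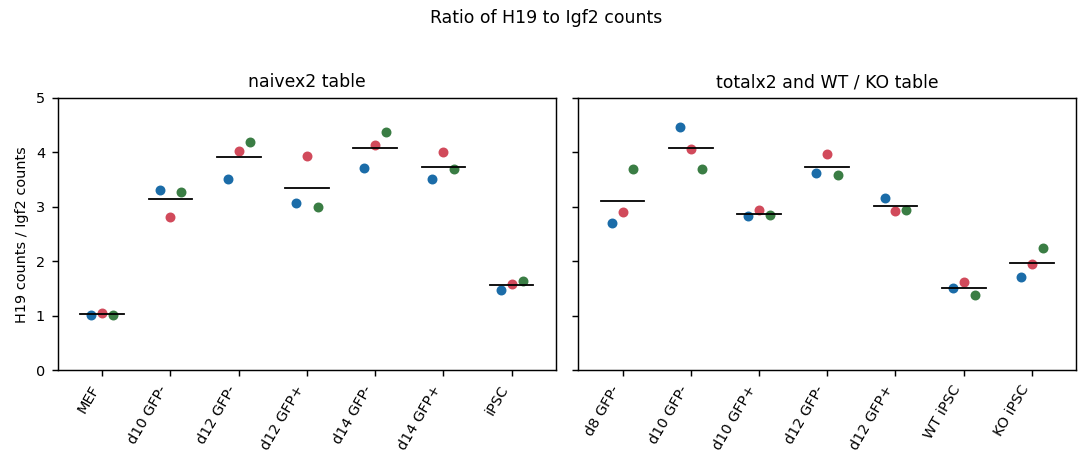
The ratio of H19 to Igf2 counts is shown for each library, coloured by replicate (1 blue, 2 red, 3 green), with the mean of each group as a line. MEF and iPSC libraries lie between 1.01 and 2.24, and all sorted libraries between 2.70 and 4.46.

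The Kcnq1 cluster, ruled by the paternal noncoding RNA Kcnq1ot1 that silences its neighbours in cis, did not move as one. Phlda2 rose with GFP in totalx2, from 1.39, 1.24 and 1.26 to 12.4, 6.97 and 9.77 CPM at day 10 (2.89 ± 0.22 (SE), adjusted p = 1.31e-08) and from 2.82, 2.47 and 2.31 to 27.2, 23.3 and 23.8 CPM at day 12 (3.26 ± 0.20 (SE), adjusted p = 8.87e-11). In naivex2 it fell at day 14, from 32.4, 32.6 and 36.1 to 15.7, 17.6 and 12.2 CPM (-1.15 ± 0.20 (SE), adjusted p = 0.000159), and was not called at day 12 (-0.27, adjusted p = 0.428). The groups were apart in these 3 calls.

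Cdkn1c, which encodes the cell-cycle inhibitor p57, held 57.7, 49.7 and 45.4 CPM in GFP- and 10.5, 10.1 and 10.2 CPM in GFP+ naivex2 cells at day 14 (-2.31 ± 0.19 (SE), adjusted p = 2.22e-08). At day 12 the fall was smaller, -0.85 ± 0.21, and the change in the difference was called (-1.46 ± 0.29 (SE), adjusted p = 0.0104). In totalx2 it held 89.01, 109.8 and 86.2 and 29.5, 28.96 and 22.2 CPM at day 12 (-1.83 ± 0.35 (SE), adjusted p = 0.00019). At day 10 it was higher in GFP+ cells, 62.2, 206 and 124 against 34.96, 76.4 and 88.5 CPM with the groups overlapping (0.98 ± 0.33 (SE), adjusted p = 0.0409). That call was lost with lines as a block (adjusted p = 0.0723) and without GFP- replicate 1 or 2 or GFP+ replicate 2 or 3 (0.149, 0.0632, 0.331 and 0.0739).

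Slc22a18, a transporter gene next to Phlda2, rose with GFP in totalx2 from 0.901, 1.504 and 1.77 to 2.83, 4.09 and 2.37 CPM at day 10 (1.16 ± 0.36 (SE), adjusted p = 0.0252) and from 2.63, 2.23 and 3.78 to 5.86, 8.23 and 8.15 CPM at day 12 (1.36 ± 0.31 (SE), adjusted p = 0.00087). Its day 10 call was lost without GFP- replicate 1 or 2 (adjusted p = 0.112 and 0.0574) or GFP+ replicate 2 (0.147). Ascl2 fell with GFP in totalx2 at day 10, from 16.4, 16.1 and 11.2 to 7.497, 6.85 and 4.88 CPM (-1.17 ± 0.25 (SE), adjusted p = 0.00159), with the groups apart. Kcnq1ot1 itself ranged from 9.97 to 17.2 CPM in knockout iPSC to 40.5 to 58.96 CPM in totalx2 day 8 cells. It was not called between naivex2 fractions (adjusted p = 0.805 at day 12 and 0.217 at day 14). In totalx2 it was not called at day 10 (adjusted p = 0.296) but was with lines as a block (-0.50, adjusted p = 0.00272) and with only those groups fitted (adjusted p = 0.0113). At day 12 it was lower in GFP+ cells by 0.73 ± 0.30 (SE, adjusted p = 0.0391), a call lost without GFP- replicate 2 (adjusted p = 0.0807) or GFP+ replicate 1 or 3 (0.0746 and 0.141). Of the outer genes of the cluster, Cd81, a tetraspanin gene, ranged within the naivex2 table from 173 to 207 CPM in iPSC to 396 to 416 CPM in MEF. Nap1l4, a histone chaperone gene, ranged within the other table from 145 to 149.7 CPM in totalx2 day 12 GFP- cells to 219 to 233 CPM in knockout iPSC. Tssc4 ranged from 18.2 to 20.2 CPM in naivex2 day 12 GFP+ cells to 42.95 to 45.2 CPM in MEF.

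**Figure D4:**
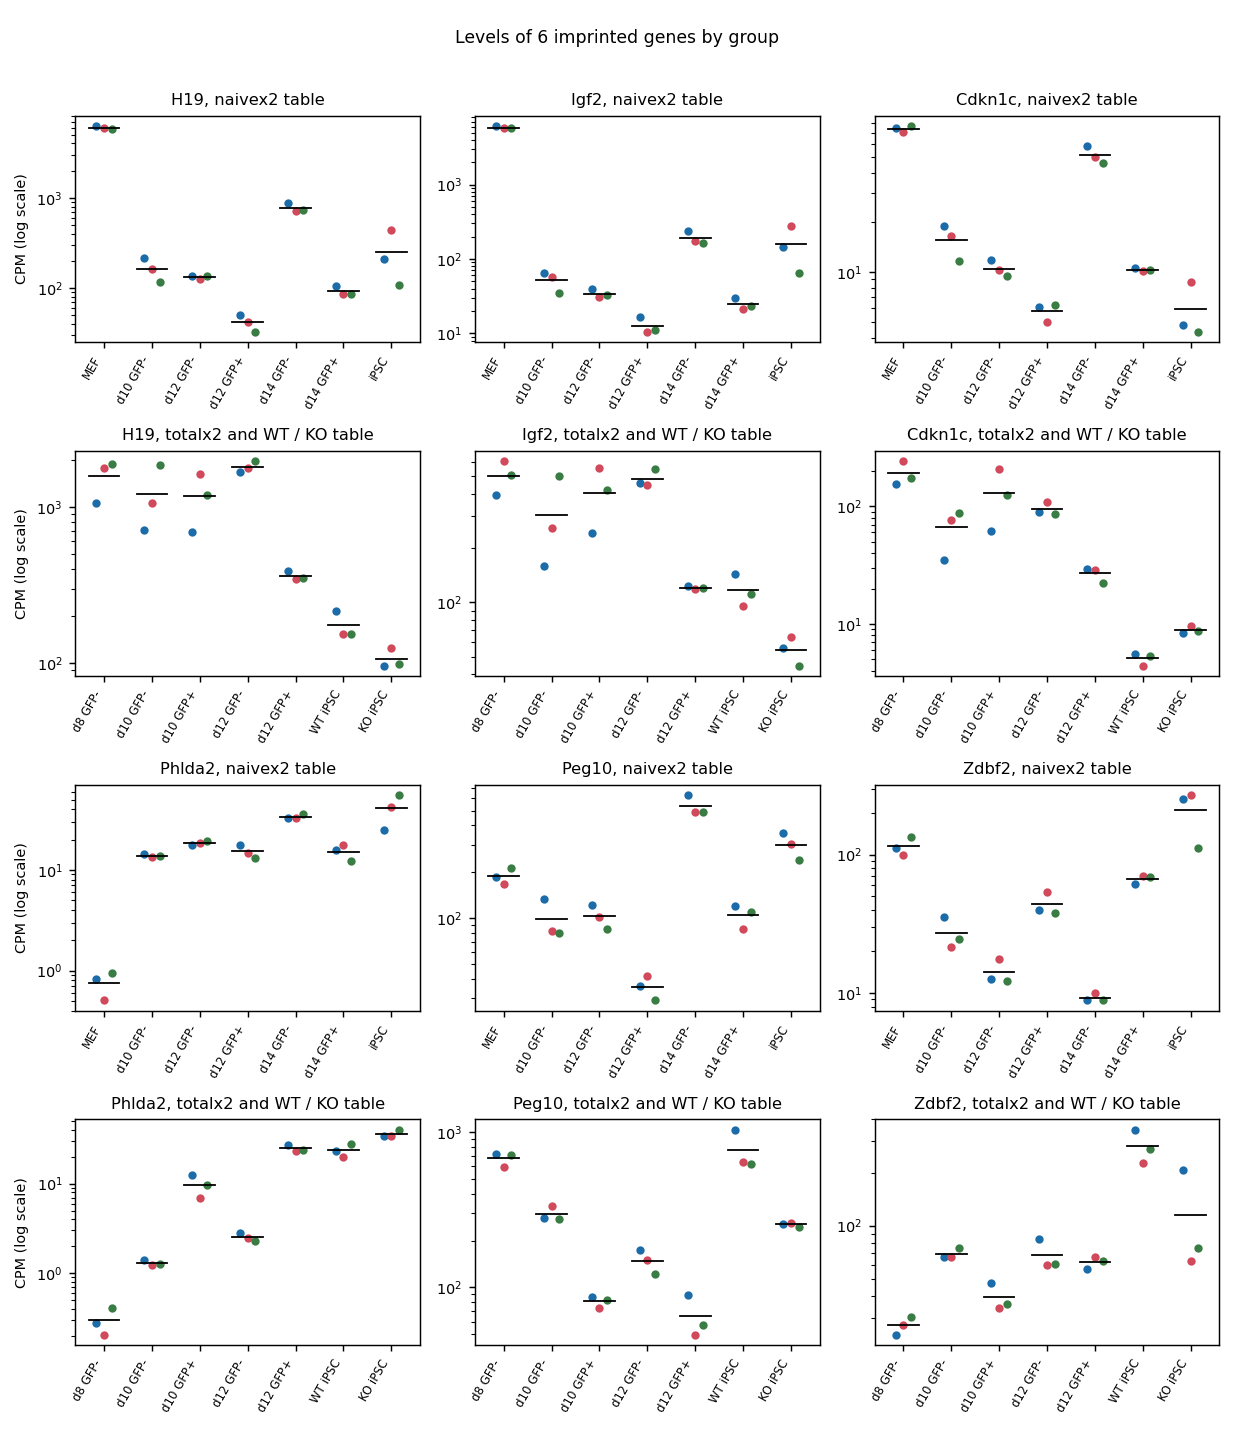
Points are CPM per library on a log axis for 6 imprinted genes in the 7 groups of each table, coloured by replicate (1 blue, 2 red, 3 green), and lines are group means. H19, Igf2 and Cdkn1c are high in day 14 GFP- and low in day 14 GFP+ naivex2 cells, where Zdbf2 shows the reverse; Phlda2 is near 1 CPM or below in MEF and in totalx2 day 8 cells.

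At the Peg10-Sgce locus both paternally expressed genes, which share a promoter region and are transcribed away from each other, were lower in GFP+ cells in all 4 comparisons. Peg10, a retrotransposon-derived gene needed for the placenta, held 122, 102 and 84.3 CPM in GFP- and 36.2, 41.8 and 29.01 CPM in GFP+ naivex2 cells at day 12 (-1.52 ± 0.22 (SE), adjusted p = 9.15e-05). At day 14 it held 629, 489 and 492 and 119, 85.1 and 109.9 CPM (-2.36 ± 0.21 (SE), adjusted p = 3.07e-07). The day 14 GFP- libraries are the highest of the naivex2 sorted groups. In totalx2 it held 278, 334 and 274 and 86.9, 74.03 and 82.9 CPM at day 10 (-1.86 ± 0.21 (SE), adjusted p = 1.85e-06) and 175, 149 and 121 and 89.5, 49.4 and 56.9 CPM at day 12 (-1.18 ± 0.20 (SE), adjusted p = 5.96e-05). In all 4 the fractions were apart. From there it was higher in iPSC, at 355, 304 and 238 CPM in naivex2 iPSC (1.51 ± 0.21 over day 14 GFP+ cells) and 1036, 641 and 619 CPM in wild-type iPSC (3.55 ± 0.22 over totalx2 day 12 GFP+ cells, which are of another cross).

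Sgce, which encodes epsilon-sarcoglycan, held 12.7, 11.2 and 10.4 CPM in GFP- and 3.92, 4.75 and 5.26 CPM in GFP+ naivex2 cells at day 14 (-1.29 ± 0.21 (SE), adjusted p = 8.05e-05) and 27.9, 20.1 and 18.7 and 6.87, 5.39 and 7.14 CPM in totalx2 at day 12 (-1.77 ± 0.17 (SE), adjusted p = 4.6e-08). Its changes at the earlier days were smaller, -0.84 ± 0.21 and -0.56 ± 0.17, and the totalx2 day 10 call was lost without replicate 3 of GFP- (adjusted p = 0.0605) or of GFP+ cells (0.0522). The maternally expressed genes of the locus went differently. Asb4 was near the floor of 3 counts in most groups, and held 2.31, 1.71 and 0.855 CPM in GFP- and 0.294, 0.637 and 0.393 CPM in GFP+ naivex2 cells at day 14 (-1.83 ± 0.46 (SE), adjusted p = 0.00449), where 3 counts are 0.212 to 0.294 CPM in the GFP+ libraries. Ppp1r9a, which encodes the neuronal scaffold neurabin, rose from 9.04, 7.83 and 9.81 CPM in MEF to 81.6, 71.8 and 91.1 CPM in naivex2 iPSC (3.19 ± 0.15 (SE), adjusted p = 4.66e-14) and was higher in GFP+ cells at day 14 by 0.64 ± 0.13 (SE, adjusted p = 0.00085). In totalx2 it was not called at day 12 (adjusted p = 0.063), but was with lines as a block (0.37, adjusted p = 0.00341) and without GFP- replicate 1 (0.52, adjusted p = 0.0153).

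At the Peg3 locus the 2 paternally expressed genes behind the shared window both fell in naivex2 GFP+ cells, while in totalx2 at day 12 they were called in opposite directions, each by a call that leaving out some libraries ended. Usp29, a ubiquitin protease gene, held 39.8, 35.8 and 31.1 CPM in GFP- and 17.6, 17.96 and 16.7 CPM in GFP+ naivex2 cells at day 12 (-1.03 ± 0.16 (SE), adjusted p = 8.07e-05), and 28.2, 26.5 and 24.9 and 14.9, 11.3 and 10.1 CPM at day 14 (-1.14 ± 0.16 (SE), adjusted p = 1.55e-05). Peg3, a zinc finger gene known for maternal care and growth, fell by 0.73 ± 0.18 (SE, adjusted p = 0.00892) and 0.99 ± 0.18 (SE, adjusted p = 0.000399) over the same comparisons. In totalx2 Usp29 was higher in GFP+ cells, at 13.5, 8.05 and 10.1 against 7.21, 4.602 and 3.87 CPM at day 10 (1.01 ± 0.25 (SE), adjusted p = 0.00618) and 10.8, 11.6 and 9.52 against 9.03, 6.47 and 4.404 CPM at day 12 (0.65 ± 0.24 (SE), adjusted p = 0.0278), each time with the groups apart. The day 10 call was lost without GFP+ replicate 1 (adjusted p = 0.0626). The day 12 call was lost without GFP- replicate 2 or 3 (0.0907 and 0.191) or GFP+ replicate 1 or 2 (0.0795 and 0.0775).

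Peg3 in totalx2 was not called at day 10 (-0.10, adjusted p = 0.755). At day 12 it held 846, 619 and 576 CPM in GFP- and 586, 441 and 435 CPM in GFP+ cells, with groups that overlap (-0.48 ± 0.18 (SE), adjusted p = 0.0226). That call was lost without GFP- replicate 1 (adjusted p = 0.134) or GFP+ replicate 2 or 3 (0.0866 and 0.0724). Zim1, the maternally expressed zinc finger gene beside Peg3, varied by line: replicate 3 was the lowest of its group in 6 of 7 naivex2 groups. It held 11.6, 10.8 and 5.19 CPM in GFP- and 5.29, 4.18 and 1.88 CPM in GFP+ naivex2 cells at day 14, which was not called (adjusted p = 0.0716). It was called with lines as a block (-1.29, adjusted p = 0.00536) and without GFP- replicate 3 (-1.58, adjusted p = 0.0394). In totalx2 at day 12 it held 24.3, 15.8 and 10.7 and 9.89, 5.96 and 4.83 CPM (-1.31 ± 0.38 (SE), adjusted p = 0.00551), and the groups were apart.

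Gnas, which encodes the stimulatory G-protein alpha subunit from several promoters, was lower in GFP+ cells in all 4 comparisons. It held 872, 902 and 934 CPM in GFP- and 387, 371 and 371 CPM in GFP+ totalx2 cells at day 12 (-1.26 ± 0.08 (SE), adjusted p = 3.12e-10). The falls were -0.30 ± 0.08 at day 10, and -0.59 ± 0.08 and -0.78 ± 0.08 at days 12 and 14 in naivex2. From MEF to naivex2 iPSC it went from 1329, 1300.2 and 1308 to 222, 224 and 185 CPM (-2.64 ± 0.08 (SE), adjusted p = 1.1e-16). Nespas, the antisense RNA of the locus, went the other way over that step, from 2.58, 2.95 and 2.31 to 5.303, 6.62 and 6.83 CPM (1.27 ± 0.21 (SE), adjusted p = 1.13e-05). The counts used strand, and both genes have values of their own. In totalx2 at day 12 Nespas held 4.68, 4.94 and 3.78 CPM in GFP- and 5.04, 7.24 and 9.59 CPM in GFP+ cells (0.71 ± 0.27 (SE), adjusted p = 0.0312), a call that leaving out any library but GFP+ replicate 1 ended (adjusted p = 0.0685, 0.0555 and 0.127 without GFP- replicates 1, 2 and 3, and 0.0549 and 0.264 without GFP+ replicates 2 and 3).

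In the Snrpn region Peg12, a paternally expressed gene without introns, fell with GFP in naivex2. It held 5.29, 4.68 and 6.01 CPM in GFP- and 2.23, 2.66 and 2.89 CPM in GFP+ cells at day 12 (-1.04 ± 0.26 (SE), adjusted p = 0.00738) and 10.6, 5.51 and 7.45 and 2.06, 1.63 and 2.59 CPM at day 14 (-1.90 ± 0.26 (SE), adjusted p = 1.06e-05). It was not called between the totalx2 fractions (adjusted p = 0.659 and 0.219). Magel2, which encodes a regulator of ubiquitin ligases, had 0 counts in all 3 day 14 GFP+ libraries and 0.404, 0.278 and 0.122 CPM in the GFP- ones, where 3 counts are 0.139 to 0.183 CPM. It was called there, but both groups lie near the floor and no fold is given. Ndn stayed at 1.46 to 12.6 CPM from day 10 to iPSC in naivex2, below every MEF library. Ube3a ranged from 104 to 105 CPM in naivex2 day 14 GFP+ cells to 220.03 to 222 CPM in MEF. Between the totalx2 fractions it was not called (adjusted p = 0.224 at day 10 and 0.171 at day 12). With lines as a block it was called at day 10 (-0.33, adjusted p = 0.000882) and day 12 (-0.29, adjusted p = 0.000867), as it was with only the compared groups fitted (adjusted p = 0.0326 and 0.0288) and, at day 12, with library totals alone (0.0494).

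At Igf2r both the maternally expressed receptor gene, which clears IGF2 from the cell surface, and the paternal antisense RNA Airn that silences it were lower in GFP+ cells late in both systems. Airn held 20.9, 24.5 and 20.4 CPM in GFP- and 4.998, 4.25 and 5.73 CPM in GFP+ naivex2 cells at day 14 (-2.14 ± 0.16 (SE), adjusted p = 7.66e-09), after a day 12 difference that was not called (-0.44, adjusted p = 0.0995). The step between the days was called (-1.70 ± 0.24 (SE), adjusted p = 0.000568). In totalx2 at day 12 it held 67.5, 70.7 and 76.6 and 15.4, 14.6 and 15.1 CPM (-2.25 ± 0.27 (SE), adjusted p = 1.16e-06). Igf2r held 614, 689 and 899 CPM in GFP- and 323, 308 and 349 CPM in GFP+ totalx2 cells at day 12 (-1.17 ± 0.18 (SE), adjusted p = 1.36e-05). In naivex2 at day 14 it fell by 0.68 ± 0.08 (SE, adjusted p = 1.64e-06). The groups of these 4 calls were apart.

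Zdbf2, a paternally expressed zinc finger gene, had the largest rise with GFP among the members in naivex2. It held 12.6, 17.6 and 12.2 CPM in GFP- and 39.7, 54.1 and 37.8 CPM in GFP+ cells at day 12 (1.63 ± 0.29 (SE), adjusted p = 0.000758), and 8.896, 10.1 and 8.85 and 61.6, 70.1 and 68.8 CPM at day 14 (2.85 ± 0.29 (SE), adjusted p = 1.83e-06). The groups were apart at both days. It was higher still in naivex2 iPSC, at 251, 269 and 113 CPM (1.65 ± 0.26 (SE), adjusted p = 7.04e-05 over day 14 GFP+ cells). In totalx2 it held 66.8, 66.4 and 74.97 CPM in GFP- and 47.4, 34.1 and 36.1 CPM in GFP+ cells at day 10, where the groups were apart and the difference was not called (adjusted p = 0.0745). It was called with lines as a block (-0.86, adjusted p = 0.000593), with only those groups fitted (adjusted p = 0.00257) and by DESeq2 (adjusted p = 0.032). At day 12 it held 83.5, 59.97 and 60.4 and 56.5, 66.2 and 63.3 CPM (adjusted p = 0.714), overlapping.

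Nnat, which encodes the membrane protein neuronatin inside an intron of Blcap, fell with GFP. It held 9.91, 6.45 and 6.61 CPM in GFP- and 2.09, 2.39 and 1.67 CPM in GFP+ naivex2 cells at day 12 (-1.87 ± 0.22 (SE), adjusted p = 4.86e-06), and 7.45, 6.62 and 4.702 and 1.37, 1.27 and 1.18 CPM at day 14 (-2.30 ± 0.24 (SE), adjusted p = 4.71e-07). In totalx2 it held 23.9, 30.2 and 19.9 and 8.15, 11.1 and 8.15 CPM at day 12 (-1.45 ± 0.25 (SE), adjusted p = 5.19e-05), and at day 10 it was not called (adjusted p = 0.0901). The day 10 difference was called with lines as a block (-0.63, adjusted p = 0.000414) and without GFP+ replicate 2 (-0.89, adjusted p = 0.0206). Its host Blcap was called in none of the 4 comparisons (adjusted p = 0.256, 0.673, 0.617 and 0.65) and ranged from 14.98 to 25.003 CPM at naivex2 day 10 to 51.9 to 54.9 CPM in MEF.

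Inpp5f, a phosphoinositide phosphatase gene with an imprinted brain isoform, held 35.7, 31.8 and 37.1 CPM in GFP- and 14.5, 14.7 and 16.6 CPM in GFP+ naivex2 cells at day 14 (-1.19 ± 0.11 (SE), adjusted p = 1.14e-07) and 7.99, 6.62 and 5.898 CPM in naivex2 iPSC. Between the totalx2 fractions it was not called (adjusted p = 0.725 and 0.29). Plagl1, a zinc finger regulator of an imprinted gene network, showed the reverse layout. It held 82.4, 98.7 and 112 CPM in GFP- and 20.9, 19.3 and 16.2 CPM in GFP+ totalx2 cells at day 12 (-2.38 ± 0.33 (SE), adjusted p = 7.58e-06), and was not called in naivex2 (adjusted p = 0.833 and 0.876). Mest, a hydrolase-like gene of mesoderm, held 70.4, 82.7 and 85.2 and 40.02, 40.6 and 36.6 CPM in totalx2 at day 12 (-1.02 ± 0.17 (SE), adjusted p = 4.07e-05). At day 10 its difference was 0.55 ± 0.17 with overlapping groups, a call lost without GFP- replicate 1 or 2 (adjusted p = 0.12 and 0.092) or GFP+ replicate 2 (0.172). Copg2, the coatomer gene that overlaps Mest on the other strand, was called in totalx2 at day 12 (0.52 ± 0.12 (SE), adjusted p = 0.000698).

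Grb10, an adaptor that limits insulin and IGF signalling, held 1396, 1346 and 1252 CPM in GFP- and 552, 581 and 541 CPM in GFP+ totalx2 cells at day 12 (-1.25 ± 0.12 (SE), adjusted p = 2.91e-08). The day 10 fall was -0.66 ± 0.11, and the step between the days was called (-0.60 ± 0.16 (SE), adjusted p = 0.0103). In naivex2 it was lower in GFP+ cells at day 14 by 0.40 ± 0.14 (SE, adjusted p = 0.0324), a call lost without GFP- replicate 1 or 2 (adjusted p = 0.138 and 0.0746) or GFP+ replicate 2 or 3 (0.0638 and 0.181). Slc38a4, an amino acid transporter gene of the placenta, rose with GFP in naivex2 at day 12 by 0.91 ± 0.09 (SE, adjusted p = 3.99e-07), was not called at day 14 (0.19, adjusted p = 0.102), and differed between the days (-0.72 ± 0.12 (SE), adjusted p = 0.00412). Impact, a regulator of translation, ranged from 59.3 to 65.4 CPM in naivex2 day 14 GFP+ cells to 132 to 152 CPM in naivex2 day 12 GFP- cells, and in the other table from 74.9 to 78.4 CPM in totalx2 day 12 GFP- cells to 156 to 170.1 CPM in wild-type iPSC. Zrsr1, a splicing factor gene inside Commd1, ranged from 8.57 to 11.5 CPM in MEF to 12.3 to 19.5 CPM in day 10 cells in naivex2, and from 9.65 to 11.4 CPM in totalx2 day 10 GFP- cells to 20.02 to 55.9 CPM in wild-type iPSC in the other table.

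Over time within a fraction, 10 of 37 genes rose and 3 fell in naivex2 GFP- cells from day 10 to day 14, against a background of 36.8% of all genes called (20.3% higher and 16.5% lower). Peg10 (2.46 ± 0.21), H19 (2.25 ± 0.36) and Igf2 (1.89 ± 0.38) rose most, and the fibroblast sum also rose, from 897 to 1495 to 3415 to 5575 CPM. The trophectoderm and placenta sum rose too, from 252 to 267 to 476 to 515 CPM. Of the tested markers, 10 of 12 for fibroblasts, 10 of 11 for trophectoderm and placenta and 5 of 8 for muscle were higher. The part of these markers in the rise was not tested. In naivex2 GFP+ cells from day 12 to day 14, 6 rose and 8 fell, against a background of 30.5% of all genes called (14.5% higher and 16% lower). In totalx2 GFP- cells from day 8 to day 12, 8 of 35 rose and 9 fell, against a background of 31.6% of all genes called (17.1% higher and 14.5% lower). With lines as a block 13 rose and 10 fell, and with library totals alone 10 rose and 6 fell. Peg10 went from 726, 592 and 716 to 175, 149 and 121 CPM (-2.19 ± 0.21 (SE), adjusted p = 6.09e-07) there, opposite to its course in naivex2 GFP- cells, over other days and in another table. In totalx2 GFP+ cells from day 10 to day 12, 4 rose and 10 fell, against a background of 25.1% of all genes called (12.2% higher and 12.9% lower), and the fibroblast sum fell from 4696 to 12355 to 2431 to 2881 CPM. The change of the GFP difference between days was called for 5 of 37 genes in naivex2, all towards lower values in GFP+ cells, against a background of 1.54% of all genes called (0.688% higher and 0.855% lower). In totalx2 it was called for 11 of 35, also all towards lower values, against a background of 27.3% of all genes called (10.5% higher and 16.7% lower). With lines as a block the totalx2 count was 19 (5 higher and 14 lower), and with RLE size factors it was 13 (2 higher and 11 lower).

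At the step to iPSC more of the paternally expressed genes were higher than lower. Against day 14 GFP+ cells, 17 of 37 genes were higher and 7 lower in naivex2 iPSC, against a background of 46.8% of all genes called (24.3% higher and 22.5% lower). Of the paternally expressed genes 11 of 18 were higher and 2 lower (median 0.81), and of the maternally expressed 4 of 15 were higher and 4 lower (median 0.01, against 0.02 for all genes). Wild-type iPSC against totalx2 day 12 GFP+ cells, which differ in cross as well as in stage, gave 11 of 35 higher and 11 lower, against a background of 51.1% of all genes called (25% higher and 26% lower). There 9 of 17 paternally expressed genes were higher and 1 lower (median 0.42), and 2 of 14 maternally expressed genes were higher and 7 lower (median -0.36). These counts have no test of the difference between the 2 classes. Zdbf2, Peg10, Mest, Impact, Slc38a4 and Nespas were among the paternally expressed genes that were higher in both. The wild-type call of Nespas was lost without wild-type replicate 2 or 3 (adjusted p = 0.058 and 0.0742) or totalx2 replicate 1 or 2 (0.15 and 0.0739). Mest went from 35.1, 31.5 and 25.8 to 87.3, 72.6 and 98.5 CPM in naivex2 (1.49 ± 0.21 (SE), adjusted p = 1.82e-05) and from 40.02, 40.6 and 36.6 to 156, 166 and 145 CPM in the other table (1.99 ± 0.17 (SE), adjusted p = 2.74e-08). Grb10 was opposite in the 2 steps. Wild-type iPSC held 78.04, 77.97 and 50.2 CPM against 552, 581 and 541 CPM in totalx2 day 12 GFP+ cells (-3.03 ± 0.12 (SE), adjusted p = 1.11e-12), and naivex2 iPSC held 612, 376 and 461 against 381, 354 and 270.3 CPM in day 14 GFP+ cells (0.53 ± 0.14 (SE), adjusted p = 0.00365), the latter with overlapping groups and not called when only those groups were fitted (adjusted p = 0.0692). Against MEF, naivex2 iPSC had 8 of 37 genes higher and 25 lower, against a background of 77.3% of all genes called (37.9% higher and 39.4% lower).

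Between Tet1 knockout and wild-type iPSC the largest difference among the imprinted genes was a rise of Grb10, followed by a fall of Peg10. In knockout against wild-type iPSC 2 of 35 genes were higher and 5 lower, against a background of 10.7% of all genes called (4.78% higher and 5.87% lower). Grb10 held 395, 352 and 367 CPM in the knockout and 78.04, 77.97 and 50.2 CPM in the wild-type clones (2.44 ± 0.12 (SE), adjusted p = 1.93e-10). Peg10 held 257, 260.1 and 246 CPM in the knockout and 1036, 641 and 619 CPM in the wild-type clones (-1.59 ± 0.20 (SE), adjusted p = 5.94e-05). Both calls held under all 13 alternatives tried, with Grb10 between 2.26 and 2.56 and Peg10 between -1.71 and -1.31. The naivex2 iPSC held 612, 376 and 461 CPM of Grb10 and 355, 304 and 238 CPM of Peg10, nearer to the knockout than to the wild-type clones. They are of another cross and another sequencing batch, and were not tested against these clones.

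The other 5 calls were each lost on leaving out 1 clone or another. Zdbf2 held 207, 63.3 and 74.3 CPM in the knockout and 350.04, 226 and 272 CPM in the wild-type clones (-1.30 ± 0.31 (SE), adjusted p = 0.0105). Knockout replicate 1 stands apart from the other two, and without it the difference was -2.04. The call was lost without knockout replicate 2 or 3 (adjusted p = 0.0573 and 0.0683) or wild-type replicate 1 (0.0658). Igf2 held 55.8, 64.1 and 44.4 CPM in the knockout and 143, 95.3 and 111 CPM in the wild-type clones (-1.08 ± 0.33 (SE), adjusted p = 0.0425). The groups were apart, but the call was lost without knockout replicate 1, 2 or 3 (adjusted p = 0.107, 0.0736 and 0.155) or wild-type replicate 1 or 3 (0.177 and 0.069). H19 held 96.05, 126 and 99.4 CPM against 215, 154 and 155 CPM and was not called (-0.70, adjusted p = 0.155), though its groups were apart too.

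Sgce held 4.29, 5.91 and 5.37 CPM in the knockout and 8.94, 8.72 and 8.73 CPM in the wild-type clones (-0.75 ± 0.18 (SE), adjusted p = 0.0103), a call lost without knockout replicate 1 (adjusted p = 0.0667). Phlda2, the second gene that rose, held 33.7, 34.01 and 39.99 against 23.1, 19.7 and 27.9 CPM (0.60 ± 0.16 (SE), adjusted p = 0.0219), lost without knockout replicate 3 (adjusted p = 0.104) or wild-type replicate 2 (0.0586). Zrsr1 held 19.1, 17.005 and 13.9 against 55.9, 24.6 and 20.02 CPM (-0.98 ± 0.27 (SE), adjusted p = 0.0261). Wild-type replicate 1, the library with 12.2% mitochondrial counts, holds the highest Zrsr1, Peg10, Zdbf2 and Igf2 of the wild-type clones. Without it the Zrsr1 difference was -0.41 (adjusted p = 0.159), and Zrsr1 was also lost without knockout replicate 2 (0.0793) or 3 (0.117). The number of genes called was 4 without wild-type replicate 1, 4 without knockout replicate 2 and 3 without knockout replicate 3, and 10 by DESeq2. By allele class, 5 of 17 paternally expressed genes were lower and none higher, 1 of 14 maternally expressed genes was higher and none lower, and 1 of 4 of the mixed class, Grb10, was higher. The fibroblast sum was 1906 to 2642 CPM in the knockout and 1774 to 2129 CPM in the wild-type clones, overlapping. The sum of 8 germline markers was 216 to 230.4 CPM in the knockout and 244 to 345 CPM in the wild-type clones, with 3 of 7 tested markers lower. The sum of 8 endoderm markers was 5.26 to 5.72 and 6.52 to 8.67 CPM, with 1 of 3 tested lower and Ttr at 0 in both. Both sums were apart between the genotypes, and their part in the differences was not tested.

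**Figure D5:**
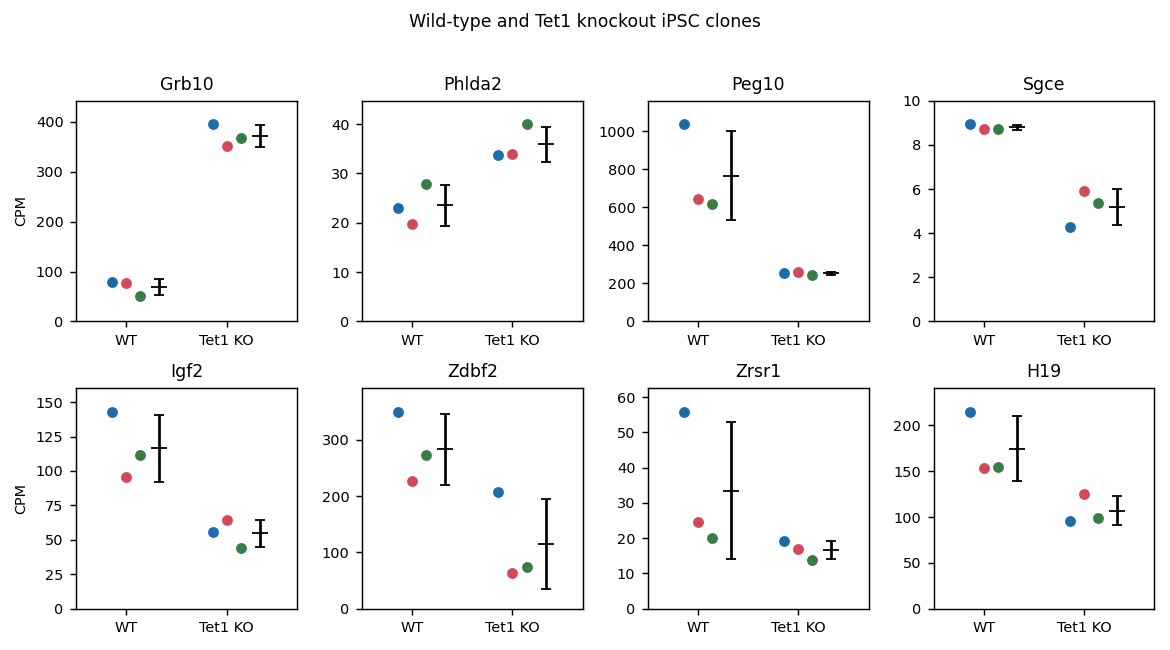
Points are CPM in the 3 wild-type and 3 Tet1 knockout iPSC clones, coloured by replicate (1 blue, 2 red, 3 green), for the 7 called genes and H19; bars are mean ± SD. Grb10 lies at 50.2 to 78.0 CPM in the wild-type and 352 to 395 CPM in the knockout clones, and the wild-type and knockout clones do not overlap in any panel.

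Genes that set or guard imprints were described beside the members. Of 20 such regulators, 14 rose and 2 fell from MEF to naivex2 day 10, where 76.4% of all genes were called, among them Dnmt3b, a de novo methyltransferase gene, which went from 5.97 ± 0.848 to 229 ± 8.501 CPM (SD, n = 3; 5.25 ± 0.12 (SE), adjusted p = 4.82e-19). In GFP+ against GFP- cells 5 were higher and 2 lower in naivex2 at day 12, 6 and 2 at day 14, 9 and 2 in totalx2 at day 10, and 13 and 2 in totalx2 at day 12, where 16.6, 31.3, 22.4 and 61.6% of all genes were called. At day 12 in totalx2 Zfp57 held 86.8, 74.9 and 70.3 CPM in GFP- and 375, 380.3 and 439 CPM in GFP+ cells, and Dnmt3l, the cofactor of de novo methylation, 1.53, 2.23 and 1.78 and 84.8, 96.4 and 131 CPM. In naivex2 at day 14 Dppa3, which encodes the imprint-protecting protein STELLA, held 93.5, 97.5 and 104 CPM in GFP- and 41.1, 41.1 and 49.3 CPM in GFP+ cells (-1.17 ± 0.13 (SE), adjusted p = 1.05e-06). In the Tet1 knockout 5 of 20 were higher and 1, Tet1 itself, lower, with 10.7% of all genes called. Dppa3 held 17.3, 12.1 and 17.9 against 8.14, 6.52 and 4.62 CPM (1.32 ± 0.26 (SE), adjusted p = 0.00319), Dnmt3l 394, 414 and 441 against 186, 275 and 248 CPM (0.81 ± 0.17 (SE), adjusted p = 0.00547), and Tdg, the glycosylase that removes oxidised methylcytosine, 56.7, 49.4 and 48.3 against 31.6, 34.95 and 31.3 CPM (0.66 ± 0.13 (SE), adjusted p = 0.00258).

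Of 28 further imprinted or nearby genes, 17 were tested in the naivex2 table and 18 in the other. From MEF to naivex2 day 10, 2 rose and 13 fell, beside 76.4% of all genes called. In GFP+ cells 1 was higher and 3 lower in naivex2 at day 12, 3 and 6 at day 14, 1 and 5 in totalx2 at day 10, and 2 and 12 at day 12, beside 16.6, 31.3, 22.4 and 61.6% of all genes. Gab1, a docking protein gene imprinted in the placenta, was higher in GFP+ naivex2 cells, at 219, 217 and 238 against 104, 104 and 125 CPM at day 14 (1.02 ± 0.08 (SE), adjusted p = 1.75e-08). In the knockout, with 10.7% of all genes called, 1 of 18 was called, H13, a signal peptide peptidase gene (0.51 ± 0.11 (SE), adjusted p = 0.00567). Of 14 genes of the insulin-like growth factor axis, all tested, 3 rose and 9 fell from MEF to day 10, beside 76.4% of all genes called. In GFP+ naivex2 cells 1 of the 14 was higher and 2 lower at day 12, and 1 and 6 at day 14. In totalx2, 5 were higher and 3 lower at day 10, and 4 and 9 at day 12. Of all genes, 16.6, 31.3, 22.4 and 61.6% were called in these comparisons. At naivex2 day 14 Igfbp3, a binding protein gene for IGFs, held 161, 119.8 and 112 CPM in GFP- and 35.9, 28.97 and 25.7 CPM in GFP+ cells (-2.12 ± 0.30 (SE), adjusted p = 4.88e-05). In the knockout 2 of 14 were lower and none higher, beside 10.7% of all genes called. They were Igf2bp2 (-0.65 ± 0.17) and Igf2bp3 (-0.37 ± 0.11), which encode proteins that bind Igf2 messenger RNA.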

How the data were processed

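Each deposited table holds unnormalized read counts by gene name. Per the file headers, the authors ran featureCounts 1.5.3 with strand setting 2 (reverse) on whole genes including introns, with 2 different GENCODE annotation files of the mouse. Alignment with HISAT2 2.1.0 and testing with DESeq2 1.18.1 are named in the submitters' processing notes. No option for reads shared by genes is in the headers. All 42 columns matched a sample, 0 were left over, and no 2 replicates held identical counts.

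Counts of all genes were filtered with filterByExpr, scaled by TMM and tested in edgeR 4.0.16 (R 4.3.3) over the 21 libraries and 7 groups of a table, with adjusted p-values called at 0.05. There were 15 comparisons. CPM and group means are mean ± SD of 3 libraries, and their precision is limited by that number. A floor of 3 counts per library marks very low levels. No fold is given where all libraries of a group lie below it, as for Magel2 at naivex2 day 14. The members, the other lists and the allele classes were chosen with earlier results of these data known, and support nothing by their choice.

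Every member is accounted for by locus. Values of every library are given for a gene called with a change of at least 2-fold between GFP fractions or called in the knockout, and at most 4 called genes of the smallest p are named per other list and comparison. Replicate numbers are lines in naivex2 and totalx2, which pairs the libraries. The correlation of same-line deviations from group means was -0.121 to 0.359 in naivex2 and 0.126 to 0.593 in totalx2, and of same-numbered wild-type and knockout clones, which are not paired, at -0.0909 to 0.0163. Alternatives were RLE factors, library totals alone, no filter, a minimum of 1 CPM in 3 libraries, a fit of the compared groups alone, DESeq2 1.42.0, a replicate block and each library left out. The test was checked on simulated counts. The labels state 3 independent lines for the sorted fractions; for the wild-type and knockout clones nothing states separate origins, and p-values there measure only the spread between these samples. Figures were drawn with matplotlib 3.10.9.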

Additional observations from a re-analysis of the deposited data

Results flagged for a closer look

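The GFP difference, GFP+ minus GFP- on the log2 scale, changed between days by edgeR's interaction test for 16 member results (Benjamini-Hochberg adjusted p under 0.05 over all genes). In naivex2, from day 12 to day 14, it moved by -1.46 for Cdkn1c, -0.65 for Igf2r, -1.70 for Airn, -0.72 for Slc38a4 and -0.83 for Inpp5f. In totalx2, from day 10 to day 12, it moved by -2.27 for H19, -2.41 for Igf2, -2.80 for Cdkn1c, -0.52 for Cd81, -1.21 for Sgce, -0.96 for Gnas, -0.95 for Igf2r, -1.74 for Airn, -0.60 for Grb10, -1.58 for Mest and -1.73 for Plagl1. Cdkn1c, Igf2r and Airn stand in both lists. The naivex2 list holds 5 of 37 members, against a background of 1.54% of all genes called. The totalx2 list holds 11 of 35, all lower, against a background of 27.3% of all genes called (10.5% higher and 16.7% lower). Counted in either direction, the totalx2 share lies near the background. In totalx2 the fibroblast marker sum overlapped between fractions at day 10 and was lower in GFP+ cells at day 12, and its part in these changes was not tested.

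At day 12, 3 genes moved in opposite directions in the 2 systems in every line, and the difference between systems was not tested, since they stand in separate tables. The share of all genes that do so was not counted, so these 3 cannot be called particular to the members. Cd81 differed by 0.26 in naivex2 and -0.54 in totalx2, Ascl2 by 0.93 and -0.74, and Usp29 by -1.03 and 0.65. The naivex2 calls of Cd81 and Ascl2 were lost without some libraries: Cd81 without GFP- replicate 1 or 2 (edgeR adjusted p = 0.118 and 0.139) or GFP+ replicate 1 or 3 (0.119 and 0.126), and Ascl2 without GFP- replicate 2 or 3 (0.0748 and 0.0792) or GFP+ replicate 3 (0.0768). In totalx2 Ascl2 was lost without replicate 2 of GFP- (0.0761) or of GFP+ cells (0.0524).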

How the results depend on the processing

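Of 264 calls of members, 52 lost their call or changed direction under at least 1 alternative, and 227 of 3503 alternative values lost the call. One reversed: Slc38a4 in naivex2 iPSC against MEF was 0.10 with library totals alone, against -0.20 with TMM, and the scaling moved the median of all genes there from 0.02 to 0.31. For knockout against wild-type iPSC the number of members called, 7 in all libraries, was 4 with only the 2 groups in the fit, 4 with clone numbers as a replicate block, and 3 to 8 on leaving out each clone. The clone numbers share nothing but the number. For the change of the GFP difference in naivex2, 9 were called with only the groups compared, against 5. In totalx2, where lines pair the libraries, the replicate block gave 19 against 11; blocked values that added or ended a GFP call stand beside the results. No replicate block could be fitted for wild-type iPSC against totalx2 cells, which share no line. The causes were not tested. With 3 libraries per group, members near the floor of 3 counts had too few counts for a small change to be detectable.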
